A study of Mus musculus with 6 samples.

Results

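Annexins are proteins that bind membranes rich in acidic phospholipids when calcium rises, through a conserved core of annexin repeats that follows an N-terminal tail particular to each member. They take part in membrane repair, in exocytosis and endocytosis, and in the link between membrane and cortical actin, and annexin A1 also acts outside the cell as a glucocorticoid-induced mediator that limits inflammation. In white adipose tissue they are made both by adipocytes, where annexin A2 has been tied to membrane traffic and fatty acid uptake, and by the other cells of the fat pad.

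The annexin genes were followed in epididymal white adipose tissue, the fat depot around the epididymis, of male wild-type C57BL/6J mice aged 16 weeks. Of the 6 libraries, 3 came from mice fasted for 24 h and 3 from mice fed normally, each from 1 biological replicate per the series' design text. Members were all genes held whose symbol begins with Anxa, which gave 4 of 3162: Anxa1, Anxa2, Anxa5 and Anxa6. The other 8 of the 12 mouse annexin genes considered (Anxa3, Anxa4, Anxa7, Anxa8, Anxa9, Anxa10, Anxa11 and Anxa13) were not analysed here.

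The genes held appear to have been chosen for a difference between fasted and fed tissue in these same libraries. This is inferred from the share of them that differs, and no such rule is stated in the labels. Values are in FPKM, a fragment count scaled to transcript length and to the mapped total. Of the 2999 genes that averaged 1 FPKM or more, 90.5% passed limma's test at an adjusted p of 0.05 (49.4% lower and 41.1% higher in fasted tissue). Fasted and fed values did not overlap in 93.4%, and in 52.6% they did not overlap and were lower in fasted tissue. All 4 annexins passed and did not overlap, and nothing is read from that. Their direction and fold change are therefore given as a description, with no test. Anxa5 did not pass with median-ratio scaling or quantile normalization. FPKM values summed over the genes held ranged from 180058 to 188061 in the fasted libraries and from 190382 to 209201 in the fed libraries. These sums cover the genes held only, and the sequencing depth is unknown.

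Each of the 4 annexins was lower in fasted than in fed tissue, and the differences were of unequal size. Anxa2 was at 23.6% and Anxa1 at 27.8% of the fed mean, Anxa6 at 40.0% and Anxa5 at 72.6%. Together they summed to 556.3, 595.9 and 587.9 FPKM in the fasted libraries and 1449.2, 1919.3 and 1257.4 FPKM in the fed libraries. The summed level was 0.376 of that in fed tissue, and the fasted sums were closer to each other (SD 20.9 FPKM) than the fed sums (SD 341 FPKM, n = 3 each).

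Anxa2 encodes annexin A2, which pairs with the small protein S100A10 at the plasma membrane and on endosomes and binds plasminogen and its activator at the cell surface. It had 159.86, 182.26 and 137.29 FPKM in the fasted libraries, against 560.58, 953.74 and 514.58 FPKM in the fed libraries. The groups did not overlap, and fed replicate 2 stood above the other fed libraries by a factor of 1.77. The means were 159.8 ± 22.5 FPKM in fasted tissue and 676 ± 241 FPKM in fed tissue (SD, n = 3 each), a log2 fold change of -2.03 ± 0.24 (SE, on the log2(FPKM + 1) scale, which applies to every fold change below). Of the 2999 genes tested, 49 had a more negative change. Without fed replicate 2 the change was -1.75. Anxa2 (ENSMUSG00000032231) is encoded at chr9:69453620-69491795 on the plus strand (GRCm38), and the longest principal coding transcript has 13 exons and 339 codons before the stop. An exon of Gm16144 on the opposite strand overlaps it, and RefSeq lists a pseudogene, Gm41080, under the older name Anxa2rp. The counting is not stated to use strand, so reads of Gm16144 could not be told apart from those of Anxa2 here, and how reads shared with the pseudogene were assigned is not stated.

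Anxa1 encodes annexin A1, the lipocortin through which glucocorticoids restrain phospholipase A2 and which signals through formyl peptide receptors. It had 60.78, 78.14 and 75.51 FPKM in the fasted libraries, against 233.67, 337.49 and 201.11 FPKM in the fed libraries. The groups did not overlap, with the highest fasted value at 38.9% of the lowest fed value, and fed replicate 2 was again the highest, by a factor of 1.55 over the other fed libraries. The means were 71.5 ± 9.36 FPKM in fasted tissue and 257 ± 71.2 FPKM in fed tissue (SD, n = 3 each), a log2 fold change of -1.81 ± 0.21. A more negative change was seen in 79 of the 2999 genes. Anxa1 (ENSMUSG00000024659) is encoded at chr19:20373428-20390944 on the minus strand (GRCm38), with 13 exons and 346 codons.

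Anxa6 encodes annexin A6, whose core of repeats is duplicated and which acts in cholesterol transport and in the recruitment of regulators of Ras and calcium signalling to membranes. It had 89.19, 93.38 and 158.08 FPKM in the fasted libraries, against 324.55, 278.89 and 249.22 FPKM in the fed libraries. The groups did not overlap, but fasted replicate 3 was 1.73 times the mean of the other fasted libraries and reached 63.4% of the lowest fed value. The means were 113.5 ± 38.6 FPKM in fasted tissue and 284 ± 37.9 FPKM in fed tissue (SD, n = 3 each), a log2 fold change of -1.36 ± 0.23, and -1.62 without fasted replicate 3. A more negative change was seen in 179 of the 2999 genes. Anxa6 (ENSMUSG00000018340) is encoded at chr11:54979108-55033445 on the minus strand (GRCm38). Its principal transcript has 25 exons and 667 codons, against 319 to 346 codons in the other 3 members.

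Anxa5 encodes annexin A5, which binds phosphatidylserine on the cell surface and forms lattices there. It had 246.48, 242.12 and 217.03 FPKM in the fasted libraries, against 330.37, 349.20 and 292.52 FPKM in the fed libraries. The groups lay close without overlapping, the highest fasted value being 84.3% of the lowest fed value. The means were 235 ± 15.9 FPKM in fasted tissue and 324 ± 28.9 FPKM in fed tissue (SD, n = 3 each), a log2 fold change of -0.46 ± 0.12. The median over all genes tested was -0.34, and 1162 of the 2999 genes had a more negative change than Anxa5. The change was -0.25 with median-ratio scaling and -0.25 with quantile normalization, which put the median of all genes at -0.15 and -0.21. Relative to those medians, Anxa5 was lower by 0.12 with values as deposited, 0.11 with median-ratio scaling and 0.03 with quantile normalization. For the other 3 members the same difference was 1.02 to 1.69 as deposited, 1.01 to 1.67 with median-ratio scaling and 0.88 to 1.73 with quantile normalization. Anxa5 (ENSMUSG00000027712) is encoded at chr3:36448923-36475894 on the minus strand (GRCm38), with 13 exons and 319 codons.

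**Figure D1:**
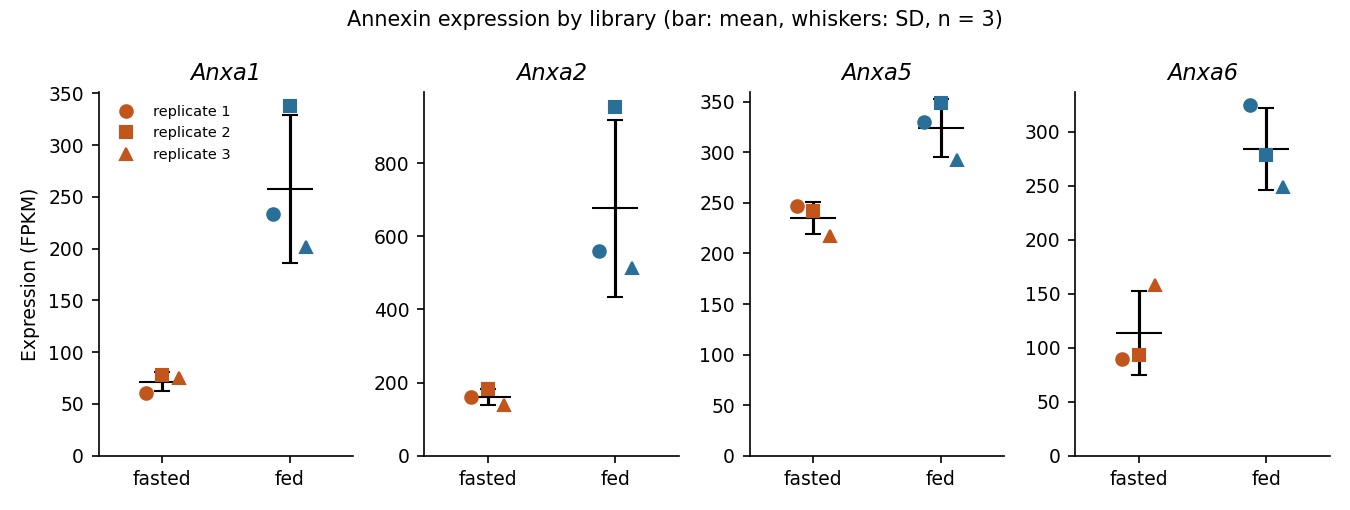
Expression of each annexin in FPKM (vertical axes start at 0 and differ between panels), with fasted libraries in orange to the left of fed libraries in blue; symbols mark the replicate, bars the mean and whiskers the SD (n = 3 each). Fasted values lie below all fed values in each panel, with a wide gap for Anxa2 and Anxa1, a narrow one for Anxa5, and fasted replicate 3 apart from the other fasted libraries for Anxa6.

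**Figure D2:**
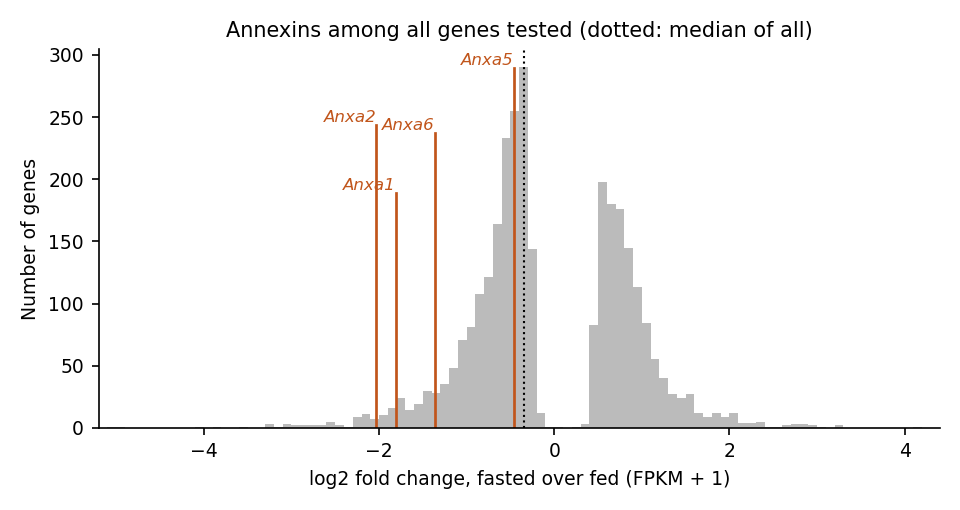
Distribution of log2 fold changes (fasted over fed, on FPKM + 1) over the 2999 genes tested, with the annexins marked by orange lines and the median of all genes, -0.34, by a dotted line. Anxa2, Anxa1 and Anxa6 lie in the negative tail, Anxa5 lies close to the peak of the negative genes, and genes with changes near 0 are almost absent.

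Because the members differed in size of change, their order differed between the groups. FPKM is scaled to transcript length, so levels can be set side by side. In fasted tissue Anxa5 was the most abundant member in each of the 3 libraries, followed by Anxa2, Anxa6 and Anxa1. The ranges of Anxa2 and Anxa6 overlapped there, as Anxa6 was above Anxa2 in fasted replicate 3, while the other neighbours in that order did not overlap. In fed tissue Anxa2 was the most abundant member in each library, and its range lay above that of every other member. Anxa5, Anxa6 and Anxa1 followed by mean level, with overlapping ranges between Anxa5 and Anxa6 and between Anxa6 and Anxa1.

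The ratio of Anxa2 to Anxa5, taken within each library, was 0.649, 0.753 and 0.633 in the fasted libraries and 1.70, 2.73 and 1.76 in the fed libraries. Anxa5 made up 40.6 ± 3.70% of the summed annexin level in fasted tissue and 21.4 ± 2.80% in fed tissue (SD, n = 3 each). Anxa2 made up 27.6 ± 3.76% in fasted tissue and 43.1 ± 5.82% in fed tissue. Anxa1 made up 12.3 ± 1.19% in fasted tissue and 16.6 ± 0.883% in fed tissue. The share of Anxa6 was 19.5 ± 6.37% in fasted tissue and 18.9 ± 4.01% in fed tissue, a difference smaller than either spread. The ratio of Anxa2 to Anxa1 was 2.63, 2.33 and 1.82 in the fasted libraries and 2.40, 2.83 and 2.56 in the fed libraries, which overlapped.

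**Figure D3:**
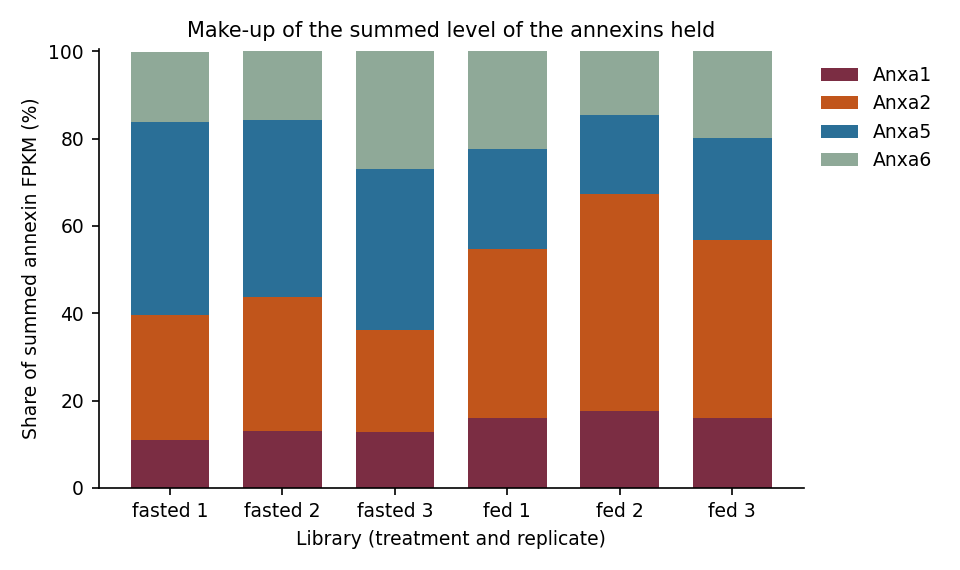
Share of each annexin in the summed FPKM of the 4 members, in percent, for each library, with fasted libraries to the left of fed libraries. Anxa5 (blue) is the widest band in the 3 fasted libraries and Anxa2 (orange) in the 3 fed libraries.

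Among libraries of the same group the members did not all vary together. Taken as deviations from the group means on the log2 scale, Anxa1 and Anxa2 had a correlation of 0.83 and Anxa2 and Anxa5 of 0.79, whereas Anxa6 had 0.26 with Anxa1, -0.29 with Anxa2 and -0.37 with Anxa5. Each value describes only 6 libraries that share their group means, and none was tested.

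Sequence upstream of the start is shown for Anxa2 and Anxa5, the members with the largest and the smallest fold difference. RefSeq (GRCm38.p6) gave windows for 3 of the 4 members, and the starts of RefSeq and GENCODE differ. The GENCODE annotation that gave the gene coordinates above places the first exon further upstream, over 63 of the 250 bases before the RefSeq start in Anxa2, over 7 in Anxa5 and over all 250 in Anxa1. The lines below therefore run from 250 to 64 bases before the RefSeq start, outside any exon of the gene, and Anxa1 is left out. They are read 5′ to 3′ on the gene's strand, at chr9:69453433-69453619 (plus strand) for Anxa2 and chr3:36475951-36476137 (minus strand) for Anxa5. Capitals mark matches on either strand to any of 7 motifs: the GC box (GGGCGG), the CCAAT box (CCAAT), an AP-1 motif (TGANTCA), an E-box (CACGTG), a glucocorticoid receptor half-site (AGAACA), a FOXO motif (GTAAACA) and a sterol response element (TCACNCCAC).
Anxa2: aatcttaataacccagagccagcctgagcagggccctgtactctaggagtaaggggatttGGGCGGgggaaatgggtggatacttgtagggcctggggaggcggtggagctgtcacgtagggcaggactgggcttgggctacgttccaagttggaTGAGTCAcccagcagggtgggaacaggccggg
Anxa5: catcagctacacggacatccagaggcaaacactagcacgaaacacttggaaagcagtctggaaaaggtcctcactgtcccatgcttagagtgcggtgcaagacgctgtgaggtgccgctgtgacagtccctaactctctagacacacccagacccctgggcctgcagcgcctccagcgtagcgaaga

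The Anxa2 window held the GC box letters once, from 190 bases before the RefSeq start, and the AP-1 letters once, from 95 bases before it. The GC box letters occurred in 22.2% and the AP-1 letters in 5.14% of all 32851 RefSeq windows at the same distance. Those windows were not screened for exons as the windows shown were, so such shares are a rough background only. None of the 7 motifs was found in the Anxa5 window. The other motifs, found in 0.715% to 26.2% of all windows, were in neither. GC content was 59.9% for Anxa2 and 56.7% for Anxa5, with a median of 51.3% over all windows. A match of letters describes the sequence only, and no match says only that these letters are not in this window.

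With values as deposited, the partners that bind annexins and were held were mostly lower in fasted tissue. With median-ratio scaling 3 of them passed as falls, and with quantile normalization also 3. Of 14 genes listed, 7 were held, of which 5 fell, 1 rose and 1 did not pass (limma, Benjamini-Hochberg adjusted p of 0.05 over all genes tested), with a median log2 fold change of -0.60 beside -0.34 over all genes. Over all 2999 genes, 49.4% fell and 41.1% rose, and this background applies to each list below. The genes held appear chosen on these libraries, so counts of a list are not independent evidence of its direction. The same holds for each adjusted p given below, as genes were also named by smallest p. These values describe the fit and are no independent test of a gene.

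S100a11, which encodes the partner of annexin A1, had 657.37, 651.44 and 675.29 FPKM in the fasted libraries and 1499.54, 1849.93 and 1405.31 FPKM in the fed libraries (log2 fold change -1.25 ± 0.14; limma adjusted p = 0.000946). S100a10, which encodes the partner of annexin A2, had 228.28, 244.38 and 213.67 FPKM in the fasted libraries and 454.00, 389.42 and 317.30 FPKM in the fed libraries (-0.74 ± 0.16; adjusted p = 0.00551). Neither gene's groups overlapped. The ratio of Anxa2 to S100a10 was 0.700, 0.746 and 0.643 in the fasted libraries and 1.23, 2.45 and 1.62 in the fed libraries. In FPKM, Anxa2 was thus above S100a10 in each fed library and below it in each fasted library. These are RNA levels, and the limits on Anxa2 reads given above apply. The ratio of Anxa1 to S100a11 was 0.108 ± 0.0141 in fasted tissue and 0.160 ± 0.0201 in fed tissue (SD, n = 3 each), also without overlap.

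Ahnak, encoding a very large scaffold protein bound by the annexin A2 complex, fell by 0.999 on the log2 scale (SE 0.13). It averaged 59.9 ± 6.89 FPKM in fasted tissue and 120.5 ± 10.6 FPKM in fed tissue. S100a4 (-0.60 ± 0.21, with overlapping groups) and Sri, which encodes the calcium-binding protein sorcin (-0.29 ± 0.12), passed by a narrow margin. Both calls were lost with median-ratio scaling (limma adjusted p = 0.112 and 0.461) and with quantile normalization. That of S100a4 was also lost without fasted replicate 1 or 3 or fed replicate 1 or 2 (adjusted p of 0.0657 to 0.0948), and that of Sri without replicate 2 or 3 of either group (0.085 to 0.15) and with no variance trend (0.056). Without fasted replicate 3, or without fed replicate 2, 3 genes of the list fell. Dysf, which encodes the membrane repair protein dysferlin, rose. It had 28.31, 20.06 and 22.46 FPKM in the fasted libraries and 11.21, 11.41 and 9.39 FPKM in the fed libraries (1.07 ± 0.16; adjusted p = 0.00205). S100a16, chosen after its values had been seen, had 68.1 ± 14.6 FPKM in fasted tissue and 98.8 ± 31.1 FPKM in fed tissue, with overlapping groups (adjusted p = 0.0727).

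The list of membrane repair and calcium-dependent membrane binding had 7 falls, 3 rises and 2 members that did not pass among 12 held of 28 listed (median -0.40). Ehd2, encoding an ATPase at the neck of caveolae, fell most. It had 152.73, 129.53 and 164.81 FPKM in the fasted libraries and 447.17, 429.47 and 395.76 FPKM in the fed libraries (-1.51 ± 0.13; limma adjusted p = 0.000414). Smpd1, the acid sphingomyelinase gene (-0.85 ± 0.14), the copine gene Cpne2 (-0.85 ± 0.15), the endocytic recycling gene Ehd1 (-0.69 ± 0.13) and the calpain gene Capn2 (-0.53 ± 0.11) also fell. The call of Capn2 was lost with quantile normalization (adjusted p = 0.0843; the alternatives spanned 0.00543 to 0.0843). Besides Dysf, the rises were Syt7 (1.10 ± 0.24), a calcium sensor of lysosome exocytosis, and Ehd4 (0.69 ± 0.19), both chosen after their values had been seen.

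Of 23 genes of phosphatidylserine exposure and recognition, the lipid that annexin A5 binds, 5 were held, of which 4 rose, 0 fell by limma (0 also at an unadjusted p under 0.05) and 1 did not pass (median 0.71). Stab2, encoding a scavenger receptor for phosphatidylserine, had 1.25, 1.54 and 2.52 FPKM in the fasted libraries and 0.28, 0.22 and 0.62 FPKM in the fed libraries (0.997 ± 0.23). It averaged 1.77 FPKM in fasted and 0.373 FPKM in fed tissue, so it passed the filter of 1 FPKM only through its fasted values. Its rise is therefore given as a description only. The scramblase family genes Plscr1 (0.71 ± 0.19) and Plscr2 (1.09 ± 0.33) also rose, and Plscr2 lost its call without fed replicate 2 (limma adjusted p = 0.0547; the alternatives spanned 0.0113 to 0.0547). Plscr1 and Plscr2 are close relatives, so their values may share reads. Ano6, encoding a calcium-activated scramblase, had 23.9 ± 6.05 FPKM in fasted tissue and 29.9 ± 2.38 FPKM in fed tissue, with overlapping groups (adjusted p = 0.102). It passed as a fall without fasted replicate 1 (adjusted p = 0.0198).

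The cortical actin list also holds Vim, which is not an actin gene. It had 8 falls, 0 rises by limma (0 also at an unadjusted p under 0.05) and 1 member that did not pass among 9 held of 25 listed (median -0.51). Vim, encoding the intermediate filament protein vimentin, had 400.52, 494.17 and 432.61 FPKM in the fasted libraries and 874.11, 1185.34 and 786.56 FPKM in the fed libraries (-1.08 ± 0.18; adjusted p = 0.00283). Vcl, encoding vinculin of focal adhesions, fell by 0.90 on the log2 scale (SE 0.13). Cfl1 (-0.51 ± 0.14), Pfn1 (-0.47 ± 0.13), Tln1 (-0.38 ± 0.11) and Actg1 (-0.59 ± 0.23), which encode cofilin, profilin, talin and gamma actin, fell by smaller amounts. With median-ratio scaling 2 members of the list passed, Vcl and Vim. The calls of Cfl1, Pfn1, Tln1 and Actg1 were lost with it (limma adjusted p of 0.0591, 0.0706, 0.154 and 0.131). That of Actg1 was also lost without fasted replicate 1 or 3 or fed replicate 2 or 3 (adjusted p of 0.0571 to 0.117), and those of Pfn1 and Tln1 with quantile normalization. Without fasted replicate 3, fed replicate 2 or fed replicate 3, 5 members fell. Actg1 has near-identical relatives and is uncertain for that reason.

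Genes of plasminogen activation, for which annexin A2 and S100A10 form a surface receptor, went both ways, with 2 rises and 1 fall among 3 held of 12 listed. Plau, encoding the activator urokinase, rose to 34.5 ± 5.37 FPKM in fasted tissue, against 13.1 ± 1.76 FPKM in fed tissue (1.33 ± 0.16; limma adjusted p = 0.000997). Hmgb1, a chromatin protein gene whose product also binds plasminogen outside the cell, rose (0.47 ± 0.13). Eno1, a glycolytic enzyme gene whose product also binds plasminogen, fell (-1.01 ± 0.19). Eno1 and Hmgb1 have near-identical relatives and are uncertain.

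The list of eicosanoid synthesis and annexin A1 receptors had 3 rises and 3 falls among 6 held of 20 listed (median 0.22). None of the formyl peptide receptor genes listed was analysed here. Pla2g2d, a secreted phospholipase A2 gene, had 13.31, 14.88 and 13.75 FPKM in the fasted libraries and 2.42, 3.04 and 2.72 FPKM in the fed libraries (2.01 ± 0.13; limma adjusted p = 0.000314). Ptges, encoding the inducible prostaglandin E synthase, had 6.08, 6.18 and 5.54 FPKM in the fasted libraries and 18.98, 49.83 and 25.23 FPKM in the fed libraries (-2.11 ± 0.31), with fed replicate 2 the highest, as for Anxa1 and Anxa2. Lta4h (0.81 ± 0.15), of leukotriene synthesis, and Hpgds (0.76 ± 0.19), a prostaglandin D synthase gene, rose, and Ptges2 (-0.71 ± 0.12) fell. Hpgds averaged 2.1 FPKM in fasted and 0.853 FPKM in fed tissue, so it passed the filter of 1 FPKM only through its fasted values. Pla2g6, a calcium-independent phospholipase A2 gene, fell by 0.33 on the log2 scale (SE 0.12). Its call was lost with median-ratio scaling (limma adjusted p = 0.291) and with quantile normalization (0.0576). It was also lost without replicate 2 or 3 of either group (0.0517 to 0.116), and the alternatives spanned 0.0314 to 0.291.

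**Figure D4:**
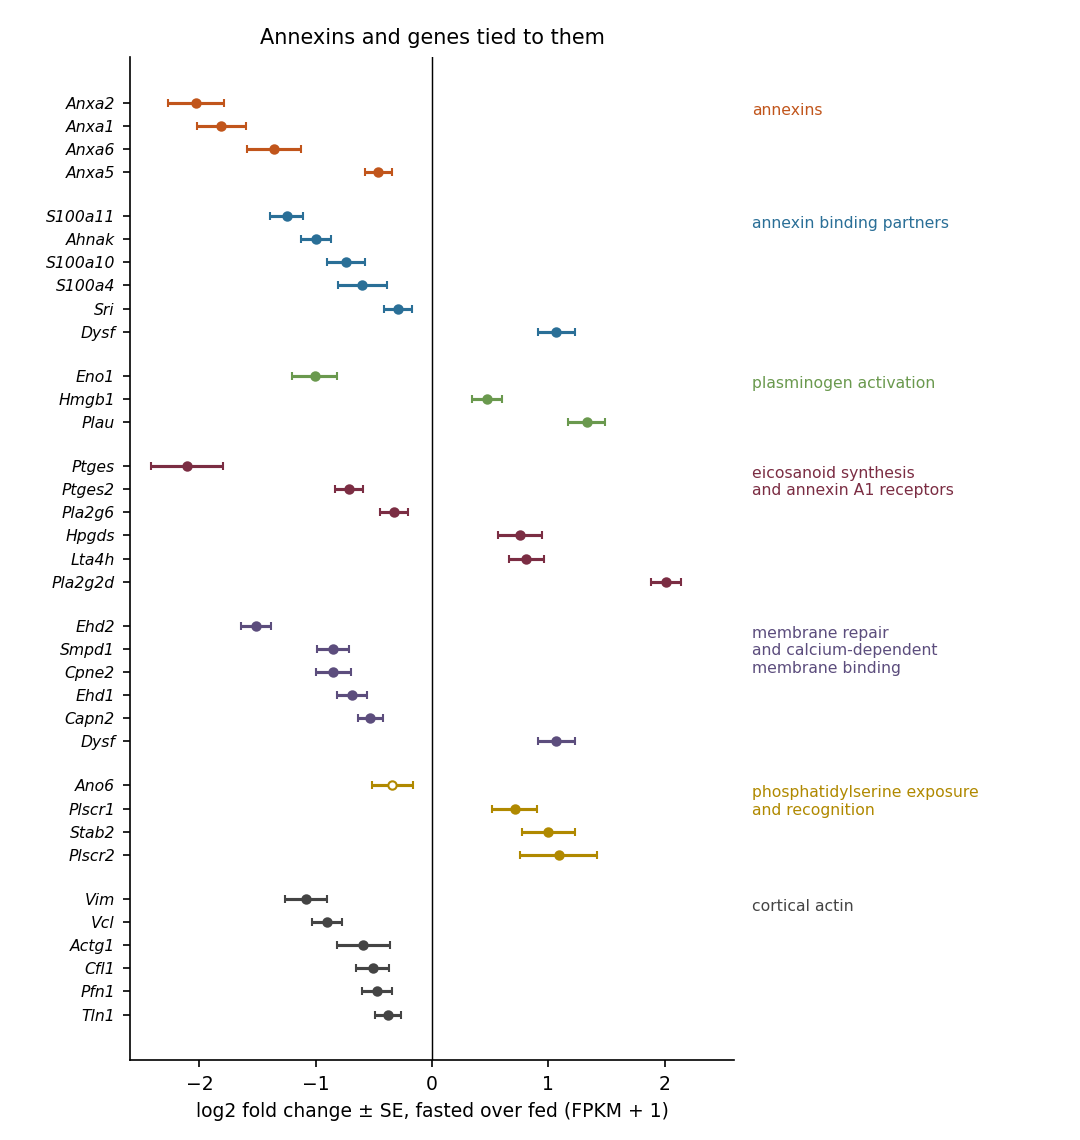
Log2 fold change (fasted over fed, on FPKM + 1) with its SE for the annexins and for the genes shown of each list tied to them (at most 6), grouped by list; open symbols did not pass limma's adjusted p of 0.05, and Dysf stands in 2 lists. Binding partners and members of the cortical actin list lie mostly left of 0 with the annexins. The genes of phosphatidylserine exposure and recognition shown, other than Ano6, lie right of 0.

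The genes most like each annexin over the 6 libraries were found by Pearson correlation of log2(FPKM + 1), as a description. For Anxa2 they were the collagen gene Col5a1 (0.9996), the vesicle tethering gene Trappc1 (0.9987) and Ufm1 (0.9986), which encodes a ubiquitin-like modifier. For Anxa1 they were Camkk2 (0.9992), which encodes a calmodulin-dependent kinase kinase, Vcl (0.9982) and Tcaf2 (0.9960), a TRP channel-associated factor gene. For Anxa5 they were Smim4 (0.9960), the semaphorin receptor gene Plxna3 (0.9956) and Armc6 (0.9941). Plxna3 had 0.59, 0.44 and 0.27 FPKM in the fasted libraries and 1.74, 2.24 and 1.24 FPKM in the fed libraries. It passed the filter of 1 FPKM only through its fed values. For Anxa6 they were Cachd1 (0.9963), the ATP synthase subunit gene Atp5o (0.9930) and the pantothenate kinase gene Pank3 (0.9925). A correlation over 0.95 was common: 12.6% of the other genes tested reached it with Anxa2, 13.2% with Anxa1, 6.70% with Anxa5 and 5.0% with Anxa6.

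Col5a1 had 12.86, 14.32 and 11.28 FPKM in the fasted libraries and 34.24, 51.33 and 30.66 FPKM in the fed libraries, with fed replicate 2 the highest, as for Anxa2. Cachd1 had 4.44, 4.65 and 11.29 FPKM in the fasted libraries and 29.87, 24.06 and 24.60 FPKM in the fed libraries, with fasted replicate 3 above the other fasted libraries, as for Anxa6. Both genes were picked for their likeness over these same libraries, so the shared replicate pattern follows from that choice.

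**Figure D5:**
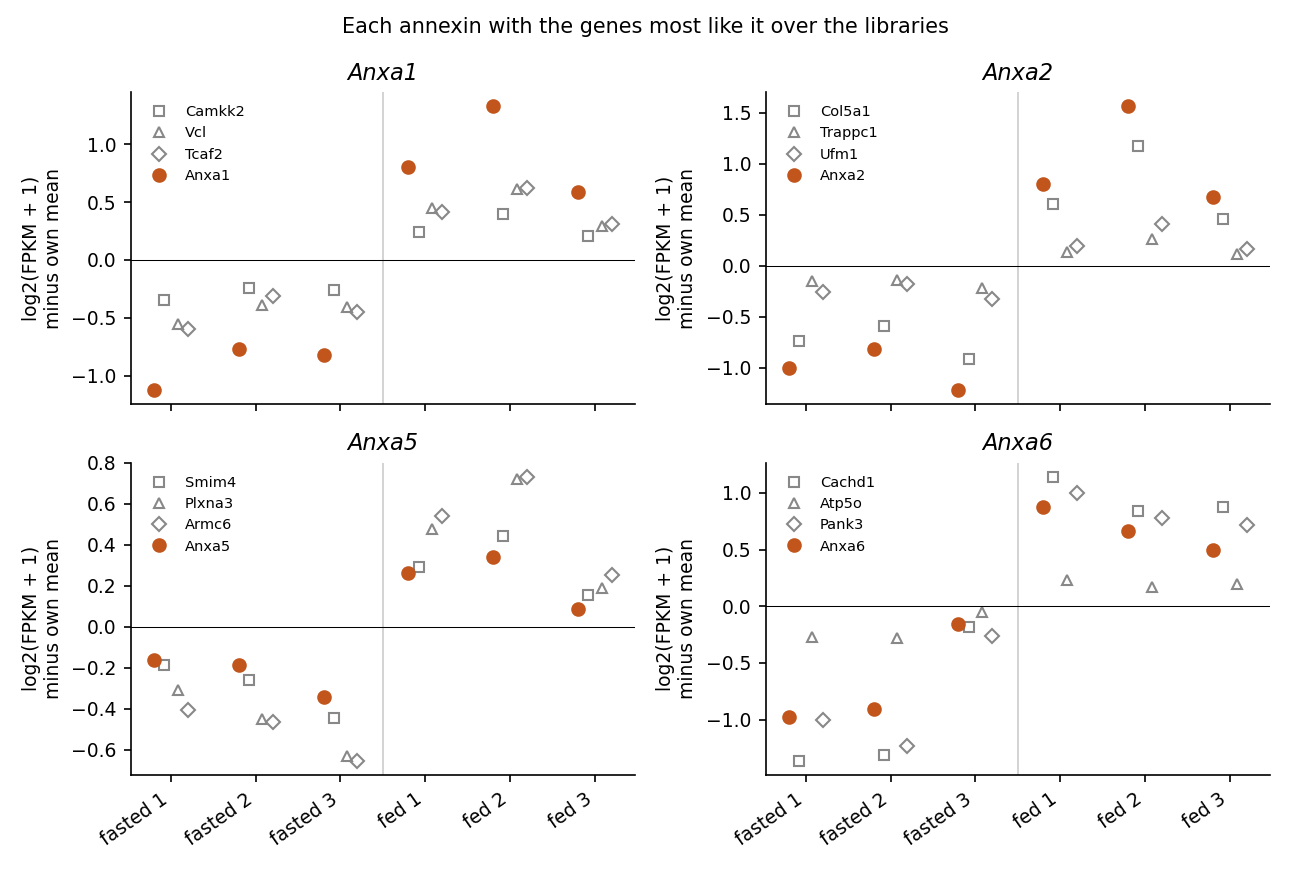
Log2(FPKM + 1) of each annexin (orange) and of the 3 genes most like it (grey, open) in each library, minus the gene's own mean over the 6 libraries, with fasted libraries to the left of fed libraries. Fed replicate 2 is highest for Anxa1, Anxa2 and Anxa5 and the genes like them, and fasted replicate 3 is the highest fasted library for Anxa6 and the genes like it. The grey genes were picked for likeness over these same libraries, so a shared pattern follows from that choice.

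Markers of the cells of the depot moved with the annexins in part. Less annexin RNA per cell and fewer cells that carry it cannot be told apart in these bulk samples. Of 21 adipocyte markers, 6 were held and all fell, with a summed level of 3297.32 to 3875.33 FPKM in the fasted libraries and 5977.19 to 7155.33 FPKM in the fed libraries. Most of that sum was 1 gene, Retn (2758 ± 120 FPKM in fasted tissue and 4156 ± 551 FPKM in fed tissue). Plin1, which encodes a coat protein of the lipid droplet, had 285.69, 259.76 and 478.69 FPKM in the fasted libraries and 798.08, 731.38 and 694.45 FPKM in the fed libraries, highest among fasted libraries in replicate 3 as Anxa6 was. Lep, Aoc3, Tshr and Retn were also highest there, but Mrap was not (133.28, 168.26 and 143.49 FPKM in the fasted libraries). The red cell markers were highest and the endothelial markers lowest in fasted replicate 3 among the fasted libraries as well. The ratio of Anxa6 to Plin1 was 0.334 ± 0.0239 in fasted tissue and 0.382 ± 0.0239 in fed tissue (SD, n = 3 each), and the ranges met at 0.359. The ratio of Anxa6 to Aoc3, an amine oxidase gene of adipocytes, was 0.535 ± 0.0681 in fasted tissue and 0.369 ± 0.0313 in fed tissue, without overlap, so Anxa6 was lower by less than Aoc3. The defining adipocyte gene Adipoq was not analysed here.

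Of 18 preadipocyte and fibroblast markers, which mark cells also known to express Anxa1 and Anxa2, 8 were held, of which 5 rose and 3 fell, with the sum at 4109.70 to 4609.80 FPKM in the fasted libraries and 1658.09 to 2801.85 FPKM in the fed libraries. Most of that sum was Gpx3 (2801 ± 581 FPKM in fasted tissue and 1208 ± 521 FPKM in fed tissue) and Dcn (1061 ± 302 FPKM in fasted tissue and 505 ± 118 FPKM in fed tissue), while Col3a1 was at 84.0 ± 7.13 FPKM in fasted tissue and 213.6 ± 6.22 FPKM in fed tissue. All 6 endothelial markers held of 15 rose (375.31 to 529.40 FPKM summed in fasted libraries and 230.59 to 277.78 FPKM in fed libraries). Of 11 mural and smooth muscle markers 7 were held, of which 4 rose and 3 fell (283.19 to 350.09 FPKM summed in fasted libraries and 314.24 to 424.34 FPKM in fed libraries). Of 20 macrophage markers 2 were held, of which Mpeg1 rose and Itgam fell (16.46 to 23.44 FPKM summed in fasted libraries and 13.55 to 17.56 FPKM in fed libraries). The neutrophil marker S100a8, 1 of 8 listed, was at 0.17 to 0.95 FPKM in fasted libraries and 3.97 to 6.98 FPKM in fed libraries. All 5 red cell markers rose (3955.43 to 10136.14 FPKM summed in fasted libraries and 1892.36 to 2799.78 FPKM in fed libraries). Of 10 epididymal epithelium markers only Adam7 was held, at 0 to 0.03 FPKM in the fasted libraries and 0.03, 2.05 and 0.02 FPKM in the fed libraries, so it was highest in fed replicate 2. Of 12 lymphocyte markers Cd3e was held, below 1 FPKM in each library, and none of 15 mesothelial markers was analysed here. The part of these cell types in the annexin differences was not tested.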

How the data were processed

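Bulk RNA sequencing of epididymal white adipose tissue was deposited as 6 files, 1 per mouse, grouped here by the treatment label. Per the file headers, the values deposited by the authors are FPKM with 2 decimals or fewer. RSEM and the builds mm10 and GRCm38.p6 are named in the submitters' processing notes. The version of RSEM and the aligner used are not stated in the labels. Of 3162 identifiers, 3158 matched GENCODE M21 (GRCm38), which gave symbols, exons and coordinates.

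From these values, limma 3.58.1 in R 4.3.3 (lmFit, eBayes with a variance trend) was fitted to log2(FPKM + 1) for the 2999 genes that averaged 1 FPKM or more; 163 genes lay below that. Two-sided p-values were corrected over all 2999 genes (Benjamini-Hochberg). The 11 alternatives were a pseudocount of 0.1, no filter, no variance trend, median-ratio scaling, quantile normalization, and each library left out.

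Named genes were all annexins, at most 6 genes per list, taken by smallest p, and the 3 genes most correlated with each annexin, leaving out predicted genes. Of the genes named by this rule, 1 is not reported here. Members, lists and rule were chosen with earlier results of these data known. FPKM values give no read counts, so no counting interval is given.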

Additional observations from a re-analysis of the deposited data

How the results depend on the processing

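Each annexin was lower in fasted tissue under all 11 alternatives. Anxa5 was -0.25 on the log2 scale with median-ratio scaling and -0.25 with quantile normalization, against -0.46 as deposited. In the same order, Anxa2 was -1.82 and -1.94 against -2.03, Anxa1 -1.60 and -1.54 against -1.81, and Anxa6 -1.15 and -1.10 against -1.36. The summed annexin level was 0.438 of the fed level with median-ratio scaling and 0.428 with quantile normalization, against 0.376 as deposited. Leaving out single libraries gave -2.20 to -1.75 for Anxa2, -1.97 to -1.60 for Anxa1, -1.62 to -1.21 for Anxa6, -0.53 to -0.40 for Anxa5 and a summed annexin level of 0.344 to 0.429 of the fed level. Of all genes, 1482 were lower and 1232 higher, so 45.4% of calls were higher. With median-ratio scaling 787 were lower and higher genes made up 61.1% of calls. With quantile normalization 1168 were lower, and over the libraries left out 1036 to 1302 were lower. Falls thus became fewer over all genes as well as in the lists below. Falls among binding partners numbered 3 with either scaling and 3 to 5 over the libraries left out (3 without fasted replicate 3 or fed replicate 2), against 5. Falls in the cortical actin list numbered 2 with median-ratio scaling and 5 with quantile normalization, against 8. Over the libraries left out they numbered 5 to 8 (5 without fasted replicate 3, fed replicate 2 or fed replicate 3). Falls in the phosphatidylserine list numbered 0 to 1 over the libraries left out, with 1 without fasted replicate 1. The cause of these shifts was not tested. No paired analysis was possible because nothing in the labels ties a fasted to a fed mouse; the replicate numbers used here are in accession order and only name a library. The depth of the libraries is unknown, and 3 mice per group limit the precision.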
